A study of Mus musculus with 15 samples.

Results

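Transcripts of 6 keratin genes and of vimentin, the intermediate filament genes Krt7, Krt8, Krt18, Krt19, Krt14, Krt5 and Vim, were followed in 4T1, a mouse mammary carcinoma line. The 7 genes were chosen by name, with earlier results of these data known. They were matched from symbol to Entrez gene identifier, 7 of 27179 identifiers in the count tables. Bulk RNA sequencing covered 5 populations with 3 biological replicates each, 15 libraries in all. The parental group was the 4T1 line with the genotype label WT. E1, E2, A and M came from parental cells transfected with the plasmid pNLS-iRFP670, which encodes a near-infrared fluorescent protein, and each was grown out of a single isolated cell. Each of these 4 groups is therefore 1 clone, and its 3 replicates measure the spread within that clone. All 5 populations grew in medium with 10% fetal bovine serum and gentamicin. The clones alone were also grown under G418 selection, and the drug was absent when RNA was collected. RNA was taken at 72 h and about 80% confluency. What the clones share against the parental line cannot be told apart from transfection, single-cell isolation and G418, which all 4 went through.

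Keratins form the cytoplasmic filaments of epithelial cells, and each filament is built from pairs of a type I and a type II keratin. Krt8 (type II) and Krt18 (type I) are the first pair of simple epithelia, with Krt7 (type II) and Krt19 (type I) added in ducts and glands. Krt5 (type II) and Krt14 (type I) are the pair of basal and myoepithelial cells of the mammary gland. Vim encodes vimentin, the type III filament protein of mesenchymal cells, which many carcinoma lines express beside their keratins.

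Values are CPM, counts relative to the scaled library total, or CPM per kilobase of exon (CPM per kb) where levels of different genes are set side by side. Libraries held 20143111 to 36831801 counts. A single unnamed identifier took 36.8% to 49.3% of each library and the 6 most counted genes together accounted for 61.4% to 72.1%, so 6164768 to 14206491 counts remained for all other genes. The 7 genes together took 0.112% to 0.328% of those remaining counts. In 5 of 5 populations, replicate 1 had the highest share of the top identifier. It was also the lowest library for Krt18 and for Vim in 5 of 5 populations, and for Krt8 in 4 of 5. Fold changes and correlations of Krt8, Krt18 and Vim are given below also without replicate 1, an alternative chosen after seeing the data, and the part of the top identifier's share in them was not tested.

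Of the 7 genes, 6 passed the filter on low counts and all 6 differed among the 5 populations at an adjusted p under 0.05, against a background of 40.9% of 12712 genes tested. Adjusted p here and below is from the quasi-likelihood test of edgeR with Benjamini-Hochberg adjustment over all genes of a comparison, and genes under 0.05 are said to be called. Without parental replicate 1 and E2 replicate 1, where the top identifier took most, 4 of the 6 were called. Krt5 had 0 counts in each of the 15 libraries. Over the 3 libraries of a population, 3 counts, the limit that a count of 0 allows, correspond to 0.0318 to 0.0378 CPM.

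**Figure D1:**
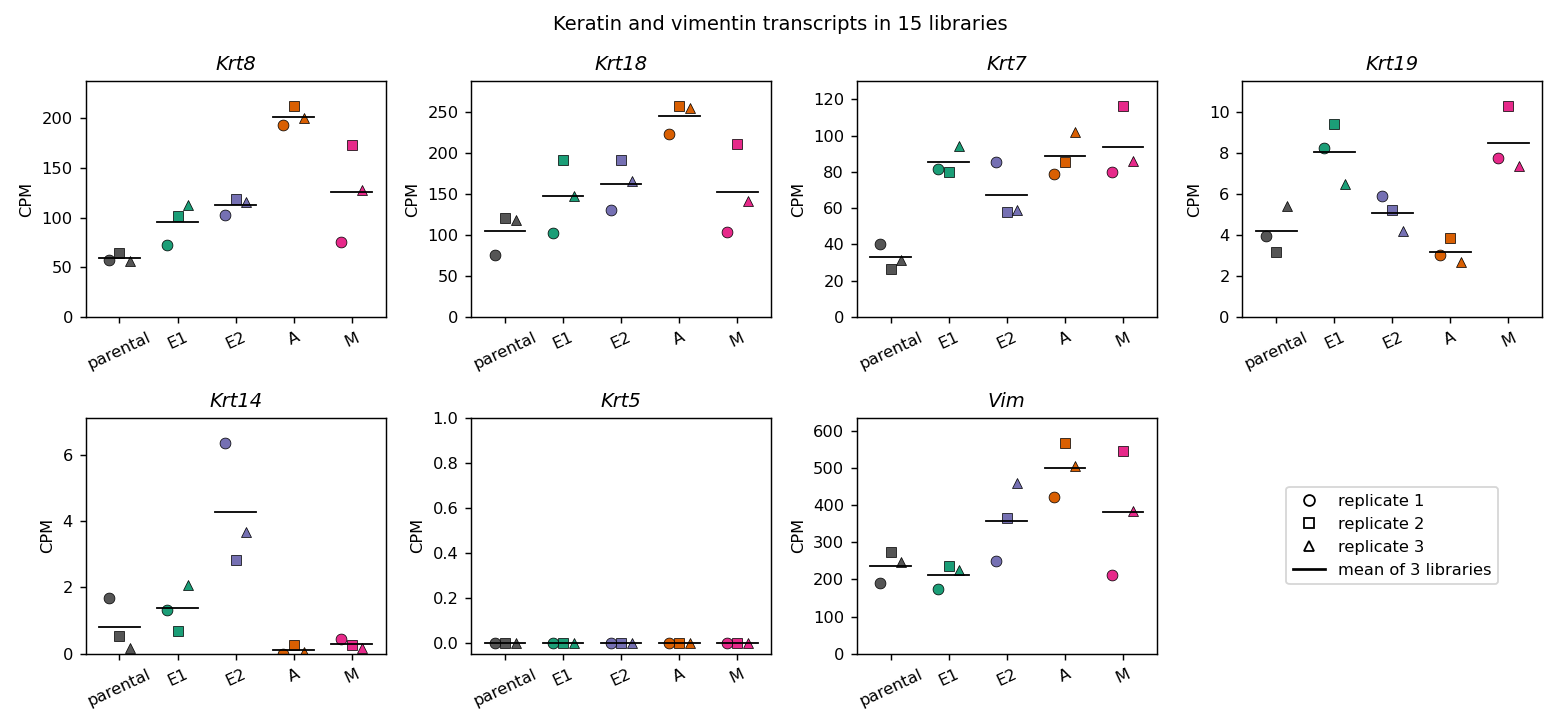
CPM of the 7 genes (vertical axes, linear, a scale of its own for each gene) in the 15 libraries, by population (horizontal axes). Circles, squares and triangles are replicates 1, 2 and 3 and lines are means of 3 libraries. The parental libraries are the lowest for Krt7, the A libraries the highest for Krt8, and all 15 libraries lie at 0 for Krt5.

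Vim, Krt18, Krt8 and Krt7 made up nearly all filament transcripts of the list, and Krt19 and Krt14 were minor. In bulk RNA, fewer cells of a type and less RNA per cell cannot be told apart, for these and all later values. In CPM per kb the parental population had 108 ± 18.9 (SD, n = 3) of Vim, 72.9 ± 17.9 of Krt18, 30.4 ± 2.46 of Krt8 and 8.04 ± 1.73 of Krt7. Krt19 stood at 2.65 ± 0.722 and Krt14 at 0.470 ± 0.457 on the same scale. Vim, Krt18, Krt8, Krt7, Krt19 and Krt14 followed in that order in all 5 populations by their means, with 1 exception: in E1, Krt18 averaged 102 ± 31.1 and Vim 96.3 ± 14.9 CPM per kb, closer than their spread. The libraries' ranges of Vim and Krt18 also overlapped in E2 (163 ± 47.5 and 113 ± 21.4) and M (173 ± 76.2 and 106 ± 38.0), and those of Krt19 and Krt14 did in E2 (3.23 ± 0.539 and 2.52 ± 1.08). The tables held 54 keratin genes, 33 of them with 0 counts in all libraries and 8 of them tested. The 6 keratins of the list made up 95.8% to 99.2% of the summed keratin level per kb in a library. That sum was 96.9, 128 and 124 CPM per kb in the parental libraries and 277, 313 and 309 in the A libraries. In E1 it was 140, 217 and 194, in E2 175, 216 and 197, and in M 138, 275 and 193. Every clone library thus lay above the 3 parental ones, and M replicate 1 was the lowest of the clone libraries.

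**Figure D2:**
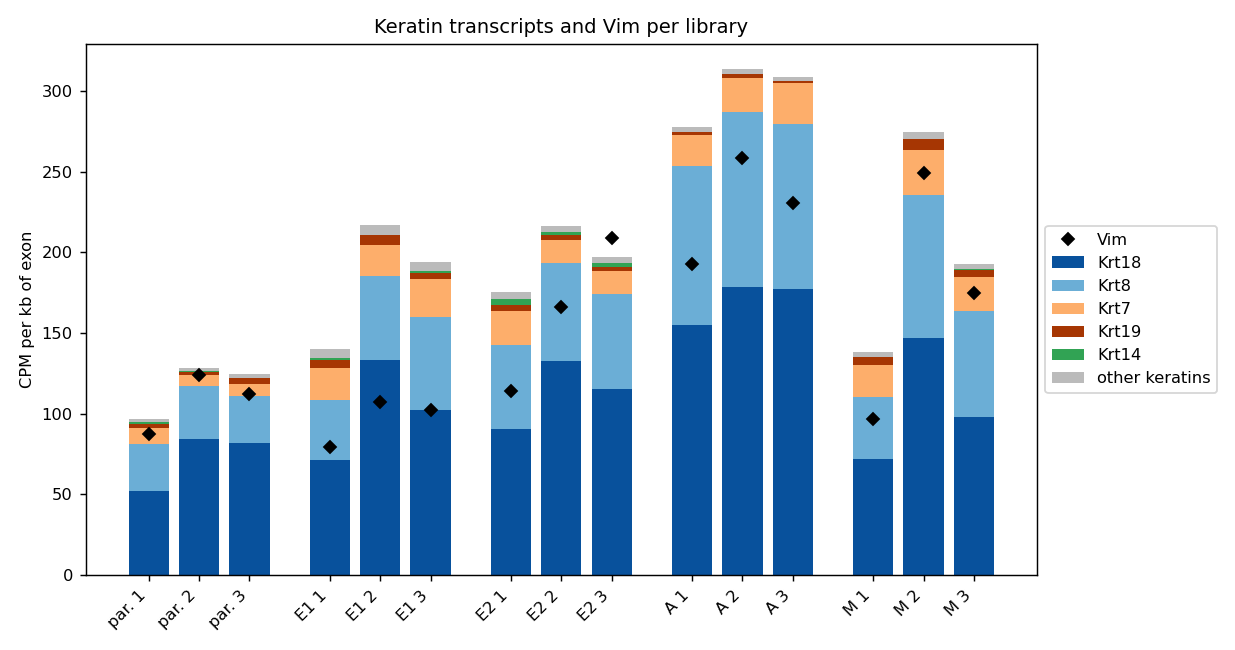
Summed keratin transcripts of each of the 15 libraries in CPM per kb of exon (stacked bars from 0, coloured by gene), with Vim on the same scale as black diamonds. Krt18 and Krt8 fill most of every bar, from 96.9 in parental replicate 1 to 313 in A replicate 2, and Vim lies between 79.4 in E1 replicate 1 and 258 in A replicate 2, above the top of the bar in E2 replicate 3 alone.

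The first pair, Krt8 and Krt18, lies side by side on chromosome 15, although Krt18 is a type I gene and most of its class lies on chromosome 11. Krt8 (identifier 16691) spans 101996711 to 102004342 on the minus strand and Krt18 (identifier 16668) spans 102028216 to 102032026 on the plus strand of GRCm38. Their promoters and that of Vim (chromosome 2, 13574311 to 13582826, plus strand, identifier 22352) are shown because these 3 genes had the most transcripts per kb of the list. The 250 bases before each annotated start are from RefSeq, build GRCm38.p6, in the direction of transcription, at chr15:102004343-102004592 (minus strand), chr15:102027966-102028215 (plus strand) and chr2:13574061-13574310 (plus strand). Capitals mark matches on either strand to 5 motifs. They are the TATA box as TATAAA, the CCAAT box as CCAAT, the GC box as GGGCGG, the AP-1 site as TGANTCA and the E-box bound by Snail and Zeb factors as CAGGTG. None of these overlap each other in the printed bases.
Krt8: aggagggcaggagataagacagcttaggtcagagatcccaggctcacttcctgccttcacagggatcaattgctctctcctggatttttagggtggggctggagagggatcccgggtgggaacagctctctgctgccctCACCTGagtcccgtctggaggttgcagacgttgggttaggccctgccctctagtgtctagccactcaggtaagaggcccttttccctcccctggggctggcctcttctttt
Krt18: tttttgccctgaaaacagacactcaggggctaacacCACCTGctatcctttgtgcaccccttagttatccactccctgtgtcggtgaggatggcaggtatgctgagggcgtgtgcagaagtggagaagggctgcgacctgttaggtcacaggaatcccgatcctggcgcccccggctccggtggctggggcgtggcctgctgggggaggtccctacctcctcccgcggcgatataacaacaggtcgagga
Vim: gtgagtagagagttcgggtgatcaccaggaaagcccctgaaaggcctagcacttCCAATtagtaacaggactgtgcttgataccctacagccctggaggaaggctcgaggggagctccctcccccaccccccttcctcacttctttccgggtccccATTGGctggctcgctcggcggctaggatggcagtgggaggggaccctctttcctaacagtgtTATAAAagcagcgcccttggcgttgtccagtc
The Krt8 window held CAGGTG on the minus strand 111 bases before the start. TATAAA matched on both strands across the annotated start itself, from 3 bases and 1 base before it, so these overlapping matches run out of the printed bases and are not in capitals. Krt18 held CAGGTG on the minus strand 214 bases before the start and no other of the 5 motifs. Vim held TATAAA 32 bases before the start and CCAAT at 196 and, on the minus strand, 94 bases before it, and no CAGGTG. Of all 32851 promoter windows of 300 bases in the table, which add 50 bases after the start, 13.6% held the TATA box, 37.4% the CCAAT box, 35.7% the GC box, 7.81% the AP-1 site and 20.2% the E-box. These matches describe letters only, and factor binding was not measured.

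Krt8 was higher in all 4 clones than in the parental population and highest in A. In CPM, the parental libraries (replicates 1, 2 and 3) had 57.1, 65.0 and 56.2, E1 had 72.7, 101 and 113, and E2 had 103, 119 and 116. A had 193, 212 and 200 CPM and M had 75.4, 173 and 128. No clone library fell to the parental range, and the A libraries lay above all 12 others. The log2 fold change against the parental mean of 59.4 CPM ± 4.82 (SD, n = 3) was 1.76 ± 0.0772 (SE) in A (adjusted p = 1.2e-06, edgeR). It was 1.08 ± 0.357 in M (adjusted p = 0.00097, edgeR), 0.92 ± 0.0918 in E2 (adjusted p = 0.0033) and 0.68 ± 0.202 in E1 (adjusted p = 0.026). Without replicate 1 of every population the 4 values were 1.74, 1.32, 0.94 and 0.82, all called. The call in E1 was lost without parental replicate 1 or 3 or E1 replicate 2 or 3 (adjusted p 0.0937 to 0.129, edgeR). With parental replicate 1 and E2 replicate 1 both left out it was lost in E1 (adjusted p = 0.167, edgeR) and in E2 (0.0773), where the fold change was 0.94. Between clones, A exceeded E1 by 1.08 ± 0.195 (adjusted p = 0.00034, edgeR) and E2 by 0.84 ± 0.0752 (0.0043, and 0.0872 without those same libraries). M was lower than A (-0.68 ± 0.353, adjusted p = 0.022, edgeR), a call lost without A replicate 2 or 3 or M replicate 1 or 3 (0.0606 to 0.113), or without replicate 1 of every population (-0.42, adjusted p = 0.0558). By mean level the order was parental, E1, E2, M and A. E1, E2 and M were not called against each other, with log2 differences of 0.23 ± 0.201 (E2 minus E1), 0.39 ± 0.399 (M minus E1) and 0.16 ± 0.356 (M minus E2).

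Krt18, the partner of Krt8, followed the same order at its ends, with A highest and the parental population lowest. Parental libraries had 75.1, 121 and 118 CPM, E1 had 102, 192 and 147, E2 had 130, 191 and 165, A had 223, 257 and 255, and M had 104, 211 and 141. The 3 A libraries lay above the 12 others. E1 and M overlapped the parental range in their replicate 1, and E2 did not overlap it. A was the clone called against the parental mean of 105 CPM ± 25.7, at a log2 fold change of 1.22 ± 0.233 (adjusted p = 0.0018, edgeR). In E2 the fold change was 0.63 ± 0.276 (adjusted p = 0.10, edgeR), in M 0.54 ± 0.372 (0.18) and in E1 0.49 ± 0.345 (0.23). Without replicate 1 of every population all 3 were called at similar sizes, 0.57 in E2 (adjusted p = 0.025, edgeR), 0.57 in M (0.025) and 0.50 in E1 (0.044), and A stood at 1.07 (4.1e-05). M was also called without M replicate 1 alone (0.75, adjusted p = 0.039). A was higher than E1 by 0.74 ± 0.271 (adjusted p = 0.040, edgeR), a call that ended without E1 replicate 1 or 3 or without any 1 of the A replicates (0.0608 to 0.124). The differences of A from E2 (0.59 ± 0.175, adjusted p = 0.11) and of M from A (-0.69 ± 0.305, 0.079) were not called. Without replicate 1 of every population both were called, at 0.51 (adjusted p = 0.034, edgeR) and -0.51 (0.038). Each was called under 5 of 16 alternatives, M minus A among them without M replicate 2 (-0.99, adjusted p = 0.0060, edgeR). E1, M and E2 lay within their spread, with means of 147 CPM ± 44.6, 152 ± 54.6 and 162 ± 30.7.

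The ratio of Krt8 to Krt18 within a library does not depend on the library's total. In CPM per kb, A had 0.575 to 0.635 transcripts of Krt8 for each of Krt18 and M had 0.534 to 0.665. E1 had 0.388 to 0.561, E2 had 0.456 to 0.580 and the parental libraries had 0.350, 0.394 and 0.558. Only A did not overlap the parental values, with a difference of log2 ratios of 0.51 from means of -0.73 ± 0.0717 and -1.23 ± 0.350 (SD, n = 3; two-sided exact permutation p = 0.1, the smallest that 3 against 3 libraries allow, 0.40 adjusted over the 4 clones). E1, E2 and M differed from the parental ratio by 0.19, 0.27 and 0.49, with exact permutation p-values of 0.6, 0.3 and 0.2. Leaving out 1 library moved the difference in E1 to between 0.047 (without parental replicate 3) and 0.38 (without parental replicate 1), with 0.082 and 0.35 without E1 replicates 3 and 2. In E2 it ran from 0.13 to 0.47 without the same parental libraries. No ratio can pass 0.05 in this design.

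Vim was highest in A, as Krt8 and Krt18 were, and E1 was not called against the parental population. Parental libraries had 191, 272 and 246 CPM and E1 had 174, 235 and 224. E2 had 249.8, 364 and 458, A had 423, 566 and 506, and M had 212, 546 and 383 CPM. A lay above both groups without overlap, while in E2 and M replicate 1 fell inside the parental range and the other 2 libraries above it. A exceeded the parental mean of 237 CPM ± 41.4 by 1.07 ± 0.195 (adjusted p = 0.0094, edgeR), a call lost without parental replicate 1 (0.91, adjusted p = 0.0748). M minus E1 was 0.85 ± 0.421 (adjusted p = 0.12) and was called with M replicate 1 left out (1.14, adjusted p = 0.0028, edgeR). A minus E1 was 1.24 ± 0.182 (adjusted p = 0.0039, edgeR) and was called under every alternative run. The fold changes against the parental population were 0.59 ± 0.296 in E2 (adjusted p = 0.17, edgeR), 0.68 ± 0.426 in M (0.12) and -0.16 ± 0.203 in E1 (0.76). Without replicate 1 of every population they were 0.65 in E2 (adjusted p = 0.0050, edgeR) and 0.85 in M (0.00046), both then called, with 1.02 in A (2.3e-05) and -0.17 in E1 (0.51). M was also called with M replicate 1 alone left out (0.98, adjusted p = 0.0031). By mean the order was E1, parental, E2, M and A. A, M and E2 were not called against each other, and neither was E1 against the parental group. A minus E2 (0.48 ± 0.283) was called under 2 of 16 alternatives and M minus A (-0.39 ± 0.417) under 1. E2 minus E1 was 0.76 ± 0.288 (adjusted p = 0.41, edgeR), with libraries that did not overlap. It was called under 3 of 16 alternatives, among them without replicate 1 of every population (0.83, adjusted p = 0.011, edgeR).

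Over the 15 libraries log2 CPM of Krt8 and Krt18 had a Pearson correlation of 0.91, Krt8 and Vim of 0.85, and Krt18 and Vim of 0.84. After the population means were removed the 3 values were 0.80, 0.87 and 0.85. Without replicate 1 of every population, over 10 libraries, they were 0.57, 0.73 and 0.55 within populations and 0.90, 0.80 and 0.71 before the means were removed. These are descriptions with no test: the libraries share replicate numbers, scaling and the depth left by the top identifier. Krt7 had within-population values of 0.29 against Krt8, -0.08 against Krt18 and -0.01 against Vim, and without replicate 1 of 0.48 against Krt8 and 0.33 against Krt18.

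**Figure D3:**
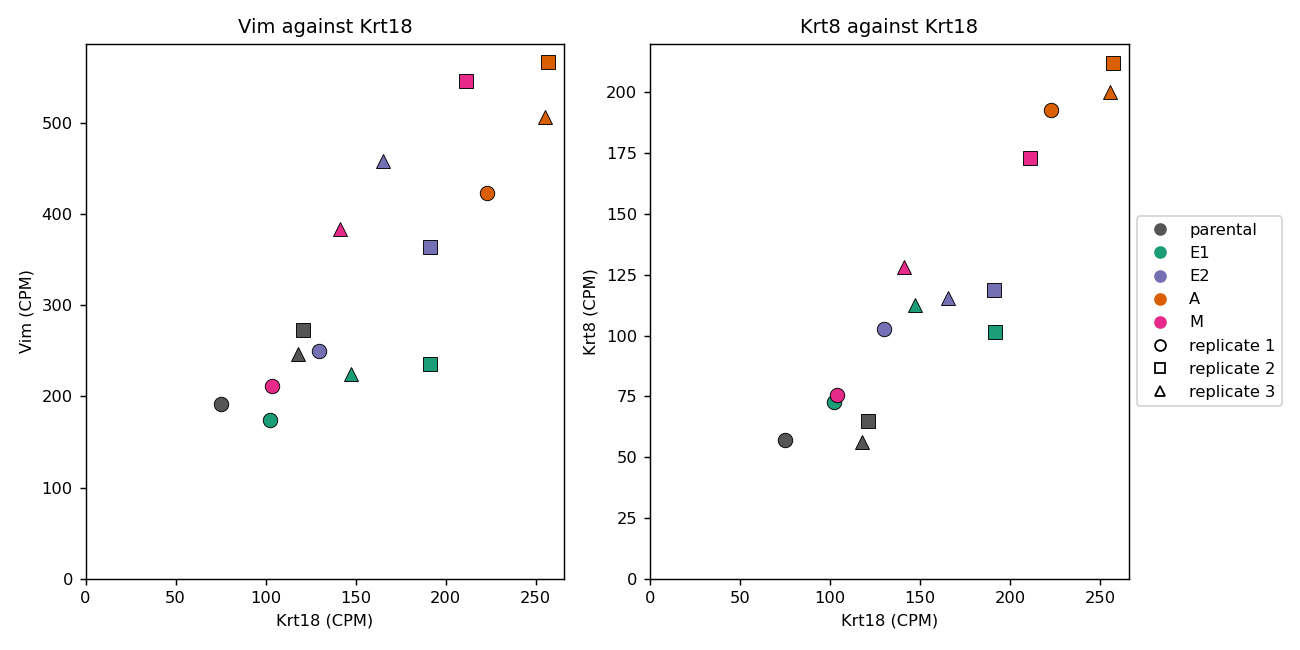
Vim (left, vertical axis) and Krt8 (right, vertical axis) against Krt18 (horizontal axes) in the 15 libraries, all in CPM on linear axes. Colours are populations and shapes are replicate numbers. Replicate 1 is the leftmost point of every colour, and replicates 2 and 3 lie above it in both panels, except for Krt8 in parental replicate 3 (56.2 against 57.1 CPM).

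Against Vim, Krt8 had a higher ratio in E1, A and M than in any parental library. The ratio of Krt8 to Vim per kb was 0.256 to 0.334 in the parental libraries, 0.468 to 0.563 in E1, 0.419 to 0.511 in A and 0.355 to 0.399 in M, all above the parental values. E2, at 0.283 to 0.461, overlapped them. The differences of mean log2 ratio from the parental -1.82 ± 0.207 (SD, n = 3) were 0.83 in E1, 0.68 in A and 0.40 in M, each with a two-sided exact permutation p of 0.1, the smallest possible, and 0.35 in E2 (exact p = 0.2). The value in E2 was 0.18 without E2 replicate 1 and 0.53 without E2 replicate 3. E1 and A thus overlapped in this ratio at unlike levels: both transcripts were high in A, and in E1 Krt8 was higher than parental while Vim was not called.

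Krt7, the type II keratin of ducts and glands, separated every clone from the parental population. It lies on chromosome 15 at 101412403 to 101427806 (GRCm38, plus strand, identifier 110310). Its promoter, from RefSeq, build GRCm38.p6, at chr15:101412153-101412402 (plus strand), is shown for contrast with the genes above, with capitals as before.
Krt7: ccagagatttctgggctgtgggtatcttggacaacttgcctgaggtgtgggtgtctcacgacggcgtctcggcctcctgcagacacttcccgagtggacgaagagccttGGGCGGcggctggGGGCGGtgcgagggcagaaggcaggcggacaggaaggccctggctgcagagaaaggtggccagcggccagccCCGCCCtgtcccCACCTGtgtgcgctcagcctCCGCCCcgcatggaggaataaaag
It held GGGCGG 141 and 128 bases before the start and, on the minus strand, 56 and 24 bases before it, and CAGGTG on the minus strand 44 bases before it. The other motifs did not match in this window. The parental libraries had 40.5, 26.6 and 31.6 CPM of Krt7, E1 had 81.7, 79.8 and 94.3, E2 had 85.5, 57.9 and 58.8, A had 78.7, 85.6 and 102, and M had 79.7, 116 and 86.0. The lowest clone library stood above the highest parental one. Log2 fold changes against the parental mean of 32.9 CPM ± 7.07 were 1.51 ± 0.242 in M (adjusted p = 1.5e-06, edgeR), 1.43 ± 0.208 in A (9.9e-07), 1.37 ± 0.192 in E1 (8.9e-06) and 1.03 ± 0.255 in E2 (0.00021). All 4 calls stood under each of the 16 alternatives run for them, with fold changes between 0.83 and 1.80. The 4 comparisons share the same 3 parental libraries and are not independent of each other. Among the clones, none of the 6 pairs was called for Krt7, and the largest difference was 0.48 ± 0.247 (M minus E2, adjusted p = 0.14, edgeR). M and A were both called above E2 without E2 replicate 1 (0.69, adjusted p = 0.044, and 0.60, adjusted p = 0.020, edgeR). By mean the order was parental, E2, E1, A and M, and the 4 clones lay within their spread of each other.

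Krt19, the smallest keratin, which lacks the usual tail domain, had another order: high in M and E1, low in A. It lies on chromosome 11 at 100140810 to 100145926 (GRCm38, minus strand, identifier 16669) and was measured on 83 to 419 counts per library. Parental libraries had 3.95, 3.18 and 5.42 CPM, E1 had 8.26, 9.43 and 6.46, E2 had 5.88, 5.20 and 4.19, A had 3.02, 3.85 and 2.68, and M had 7.76, 10.3 and 7.35. All 6 libraries of E1 and M lay above the 9 others, and A overlapped the parental population alone. M exceeded A by 1.39 ± 0.212 (adjusted p = 0.00064, edgeR) and E1 exceeded A, with A minus E1 at -1.32 ± 0.219 (adjusted p = 0.00049), and both calls held under every alternative run. Against the parental mean of 4.18 CPM ± 1.14 the fold change was 1.00 ± 0.265 in M (adjusted p = 0.012, edgeR) and 0.93 ± 0.271 in E1 (0.019). The call in M ended without parental replicate 2 or M replicate 2 (adjusted p 0.0659 and 0.0674, edgeR). That in E1 ended without parental replicate 1 or 2 or E1 replicate 1 or 2 (0.0536 to 0.0995). E2 and A were not called against the parental level (0.27 ± 0.261 and -0.39 ± 0.267). The order by mean was A, parental, E2, E1 and M, in which A and parental, parental and E2, and E1 and M were closer than their spread.

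Krt7 and Krt19 can pair in the same filament, and their ratio was highest in A. In CPM per kb, A had 8.57 to 14.7 transcripts of Krt7 for each of Krt19. E1 had 3.26 to 5.62, E2 had 4.28 to 5.59, M had 3.96 to 4.50 and the parental libraries had 2.25, 3.22 and 3.95. The mean log2 ratio was 3.43 ± 0.399 in A and 1.61 ± 0.412 in the parental population (SD, n = 3), a difference of 1.82 (two-sided exact permutation p = 0.1, the smallest possible, 0.133 adjusted over the 4 clones). E2 and M also did not overlap the parental ratio (differences of 0.72 and 0.48, exact p = 0.1 each), although the lowest M and the highest parental library stood at 3.96 and 3.95, and E1 overlapped it (0.43, exact p = 0.4). The difference in M was 0.26 without parental replicate 3, and that in E1 0.21 without it and 0.20 without E1 replicate 3.

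Krt14, the basal type I keratin, was scarce everywhere and had its highest level in E2. It lies on chromosome 11 at 100203162 to 100207510 (GRCm38, minus strand, identifier 16664). The libraries held 36, 14 and 6 counts in the parental population, 44, 15 and 66 in E1, 122, 81 and 121 in E2, 10, 11 and 5 in M, and 0, 8 and 2 in A. In CPM these were 1.67, 0.536 and 0.189 in the parental libraries, 1.33, 0.697 and 2.08 in E1 and 6.35, 2.83 and 3.68 in E2. A had 0, 0.261 and 0.0615 CPM and M had 0.441, 0.270 and 0.162. The E2 libraries lay above the 12 others, and the parental libraries spread over a range wider than their mean of 0.799 CPM ± 0.775. On the log2 scale with a prior count of 2, A minus E2 was -4.62 ± 0.737 (adjusted p = 6.7e-05, edgeR), M minus E2 was -3.62 ± 0.472 (0.0041) and A minus E1 was -3.04 ± 0.784 (0.0016). These 3 calls held under every alternative run. Against the parental population E2 was higher by 2.35 ± 0.865 (adjusted p = 0.018, edgeR), a call that did not stand without parental replicates 2 or 3 singly, or E2 replicate 1 (0.0688 to 0.0903). A was lower (-2.27 ± 1.03, adjusted p = 0.013, edgeR), with ranges that overlap, and the call ended without parental replicate 1, A replicate 1 or A replicate 3 (0.0578 to 0.160). Without parental replicate 1 the difference was -1.30, and without replicate 1 of every population it was -0.93 (adjusted p = 0.41, edgeR). E1 and M were not called (0.77 ± 0.906 and -1.26 ± 0.862). By mean the order was A, M, parental, E1 and E2, and in it A and M, M and parental, and parental and E1 overlapped.

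Krt5, the partner of Krt14, lies on chromosome 15 at 101707069 to 101712905 (GRCm38, minus strand, identifier 110308) and gave no counts, so no ratio of the basal pair was formed. Trp63, the p63 gene of basal epithelial cells, had 20 counts in all 15 libraries together. The summed level of 7 myoepithelial markers was 0.882 to 1.99 CPM in the parental libraries, 1.36 to 2.57 in E1, 0.922 to 1.83 in A, 0.515 to 1.28 in M and 0.419 to 0.937 in E2. E2, which had the most Krt14, was thus the lowest in these markers by mean (0.614 CPM ± 0.282), and Acta2, smooth muscle actin, had 29 counts in all. All 15 libraries held transcripts of the simple epithelial markers Krt7, Krt8, Krt18 and Krt19, which alone do not identify a carcinoma line. Of the basal markers, Krt5 was absent and Trp63 nearly so. Krt14, the third basal marker, went the other way, with counts in 14 of 15 libraries and 81 to 122 in each E2 library.

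Counted over the list, 3 of 7 genes were higher in E1 than in the parental population (Krt7, Krt8 and Krt19) and 0 lower, where 15.1% of all tested genes were called, 7.77% higher and 7.35% lower. E2 had 3 higher (Krt7, Krt8 and Krt14) and 0 lower, against 17.9% called, 9.14% higher and 8.80% lower. A had 4 higher (Krt7, Krt8, Krt18 and Vim) and 1 lower (Krt14), against 30.0% called, 15.1% higher and 14.9% lower. M had 3 higher (Krt7, Krt8 and Krt19) and 0 lower, against 14.1% called, 7.87% higher and 6.28% lower. Libraries did not overlap the parental ones for 3 genes in E1 (33.4% of all tested genes), 3 in M (29.3%), 4 in A (44.6%) and 4 in E2 (32.6%). The 4 comparisons use the same 3 parental libraries. The count for E1 fell to 1 without parental replicate 1 or E1 replicate 2, that for A to 3 without parental replicate 1, and that for M rose to 5 without M replicate 1. Without replicate 1 of every population there were 5 for both E2 and M, 4 for A and 3 for E1. The 4 simple epithelial keratins had median log2 fold changes of 1.33 in A, 1.04 in M, 0.81 in E1 and 0.77 in E2, where all tested genes had medians of 0.03, -0.01, -0.01 and 0.01.

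**Figure D4:**
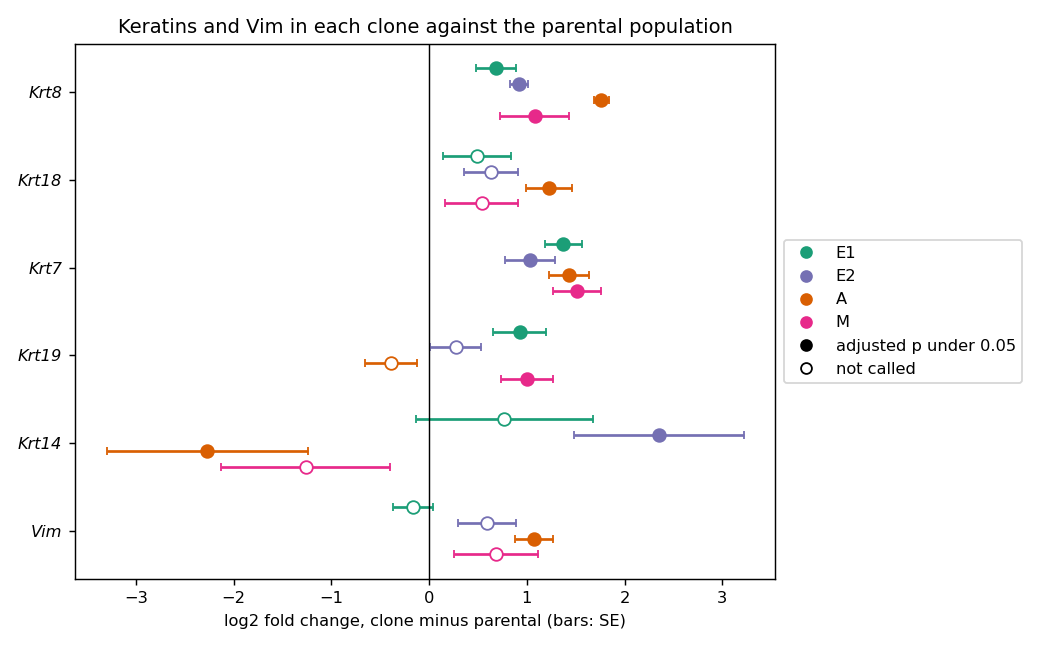
Log2 fold change of the 6 tested genes in each clone against the parental population (horizontal axis, vertical line at 0), coloured by clone. Bars are SE from the SD of 3 against 3 libraries, filled points have an adjusted p under 0.05. Krt7 and Krt8 lie to the right of 0 in all 4 clones, and Krt14 runs from -2.27 in A to 2.35 in E2.

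Between the clones most calls involved A, as did most calls over all tested genes. Of these, 29.6%, 22.4% and 17.7% were called between A and E1, E2 and M, and 0.236% to 3.89% in pairs without A. A differed from E1 in 5 of the 7 genes, Krt8, Krt18 and Vim higher and Krt19 and Krt14 lower, where 29.6% of all genes were called, 15% higher and 14.6% lower. These 5 genes had libraries that did not overlap, as did 47.1% of all genes. A exceeded E2 in Krt8 and was lower in Krt14, against 22.4% called, 11.4% higher and 11.0% lower, and 4 genes did not overlap (38.9%). M was lower than A in Krt8 and higher in Krt19, against 17.7% called, 9.20% higher and 8.55% lower, and 3 genes did not overlap (35.1%). M was lower than E2 in Krt14 alone, against 3.50% called, 1.93% higher and 1.57% lower, and 2 genes did not overlap (19.4%). A second gene, Krt7, was called between M and E2 without E2 replicate 1. The count for M against A was 1 without A replicate 2 or 3 or M replicate 1 or 3. E2 against E1 gave 0 calls among the 7 genes by edgeR and 0 by DESeq2, with 3 genes at an unadjusted p under 0.05, where 0.236% of all genes were called, 0.173% higher and 0.0629% lower. Libraries of E2 and E1 did not overlap for 3 of the genes (15.1% of all genes). M against E1 gave 0 calls by edgeR and 1 by DESeq2 (Krt14), with 2 genes at an unadjusted p under 0.05, where 3.89% of all genes were called, 2.43% higher and 1.46% lower, and 1 gene did not overlap (21.8%). M against E1 had 2 calls, Krt8 and Vim, without M replicate 1.

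Genes that share the filament and its anchors are given next as counts called against the parental population, beside shares over all tested genes of 7.77% higher and 7.35% lower in E1, 9.14% and 8.80% in E2, 15.1% and 14.9% in A, and 7.87% and 6.28% in M. Other keratins were few. Of 48 further keratins listed, 3 passed the filter, and Krt80, a type II keratin of differentiating epithelia, was the one called among the 5 populations. Parental libraries had 3.53 CPM ± 2.06 of Krt80, E1 had 13.6 ± 0.476, E2 had 6.45 ± 0.898, A had 4.27 ± 0.477 and M had 8.52 ± 1.95 (SD, n = 3). E1 exceeded the parental level by 1.92 ± 0.603 (adjusted p = 0.00015, edgeR) and M by 1.25 ± 0.635 (0.0072, and 0.0559 in the fit of its 6 libraries alone), and A was lower than E1 (-1.66 ± 0.0957). M was higher than A by 0.99 ± 0.222 (adjusted p = 0.025), a call lost without any 1 of the A replicates or without M replicate 2 or 3 (0.0518 to 0.0918). Of 12 other cytoplasmic filament genes 2 were tested. Nes, which encodes nestin, was not called among the populations, and Synm, which encodes synemin, was called lower in E1 and M, at 3.71 CPM ± 0.987 in the parental population, 0.687 ± 0.244 in E1 and 0.771 ± 0.117 in M. The 3 nuclear lamins were all called among the populations, and 3 were higher in A, 2 in E1, 2 in E2 and 1 in M, with 0 lower. Lmnb2, a B-type lamin, was higher in all 4 clones, by 1.38 ± 0.339 in E2, 1.32 ± 0.232 in E1, 0.99 ± 0.265 in M and 0.90 ± 0.315 in A. Its calls in A and M ended without parental replicate 3, or without A replicate 1 and M replicate 2 respectively (adjusted p 0.061 to 0.0802, edgeR). Lmna, the A-type lamin, was called higher in A (0.70 ± 0.130, adjusted p = 0.00057) and in no other clone. Lmnb1, the other B-type lamin, was higher in E1, E2 and A by 0.72 ± 0.238, 0.89 ± 0.208 and 0.73 ± 0.200.

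Plakins and other linkers tie keratin filaments to the cell's junctions, and here 4 of 11 tested were called among the populations (40.9% of all tested genes were). Against the parental population 4 were higher in E2 (9.14% of all genes) and 2 in each other clone (7.77% in E1, 15.1% in A, 7.87% in M), and 2 were lower in A (14.9%) and 2 in M (6.28%), with medians of 0.46 in E2, 0.23 in E1, 0.15 in M and -0.27 in A. Ppl, which encodes periplakin, was the one with the widest range of means, from 4.09 CPM ± 1.15 in the parental population to 9.80 ± 4.60 in E1, 10.5 ± 3.50 in E2, 12.4 ± 4.49 in M and 24.4 ± 3.02 in A. It was called higher in every clone, at 2.57 ± 0.268 in A (adjusted p = 4.6e-06, edgeR) down to 1.26 ± 0.451 in E1 (0.011), where the call ended without parental replicate 3 or E1 replicate 3 (adjusted p 0.0609 and 0.0854). Dsp, which encodes desmoplakin, the anchor of keratins at desmosomes, was higher in E1 (0.65 ± 0.0739, adjusted p = 0.0086) and lower in A (-0.70 ± 0.151, 0.0021). Its level ranged from 31.2 CPM ± 5.06 in A to 80.1 ± 1.52 in E1, with 50.9 ± 4.37 in the parental population. In E2 Dsp was higher by 0.50 ± 0.164 (adjusted p = 0.037), which was not called with parental replicate 2, parental replicate 3, E2 replicate 1 or E2 replicate 3 left out (0.0676 to 0.185). Fam83h, whose product is known to organise keratin filaments, was lower in A and M (-1.90 ± 0.260 and -1.87 ± 0.388, adjusted p = 5.3e-07 and 2.3e-06, edgeR) and not called in E1 or E2. Plec, the most general linker, and Dst and Macf1 were not called among the populations.

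Desmosomes, the junctions that hold keratin filaments, had 9 of 12 genes tested, and all 9 were called among the populations (40.9% of all tested genes were). Against the parental population 3 were higher and 0 lower in E1 (15.1% of all genes called), 5 and 1 in E2 (17.9%), 3 and 2 in A (30.0%), and 3 and 2 in M (14.1%). Perp, a desmosomal membrane protein, was higher in all 4 clones, from 79.6 CPM ± 22.5 to between 151 and 175, with fold changes of 0.92 to 1.14. Pkp3, a plakophilin, was also higher in all 4, by 1.11 ± 0.249 in E1, 1.08 ± 0.218 in E2, 1.04 ± 0.189 in M and 0.69 ± 0.193 in A, and its call in A ended without replicate 1 of every population (adjusted p = 0.0711, edgeR). Dsg2, a desmosomal cadherin, was lower in A and M (-0.76 ± 0.116 and -0.70 ± 0.149, adjusted p = 0.0011 and 0.0055, edgeR) and not called in E1 or E2. Dsc2, another desmosomal cadherin, was called lower in E2 and M and was not called in A. It had 5.98 CPM ± 1.15 in the parental population, 3.10 ± 1.31 in E2, 2.48 ± 0.278 in M and 7.97 ± 1.79 in A. Its call in M held under every alternative run, and that in E2 was lost under 4 of 16. Pkp4, a plakophilin relative, was lower in A (-0.91 ± 0.0997, adjusted p = 7e-05) and in no other clone called. Jup, plakoglobin, was higher in A by 0.87 ± 0.246 (adjusted p = 0.0015, edgeR). It was also called higher in E2, at 23.0 CPM ± 2.39 against 15.4 ± 3.74 in the parental population, a call kept under 8 of 16 alternatives. The list's median was 0.58 in E2, 0.41 in M, 0.37 in E1 and 0.27 in A.

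At the hemidesmosome, which ties keratins to the basement membrane, 6 of 7 genes were called among the populations (40.9% of all tested genes were). Against the parental population 4 were higher in M (7.87% of all genes) and 3 in each other clone (7.77% in E1, 9.14% in E2, 15.1% in A), and 2 were lower in A (14.9%). Lama3 and Lamb3, the alpha and beta chains of laminin-332, were higher in E1 by 1.50 ± 0.167 and 1.27 ± 0.161 and in E2 by 1.35 ± 0.277 and 1.29 ± 0.0801. In A both were lower (-1.10 ± 0.222 and -0.79 ± 0.0690, adjusted p = 0.0070 and 0.0089, edgeR). M had Lamb3 higher by 1.01 ± 0.397 (adjusted p = 0.0026), and Lama3 by 0.98 ± 0.445 (0.025), a call that ended without parental replicate 1 or 3 or M replicate 2 or 3 (0.0542 to 0.181). With parental replicate 1 and E2 replicate 1 both left out, the call of Lama3 in E2 was lost (adjusted p = 0.0684, edgeR). Itga6, the integrin subunit of hemidesmosomes, was higher in A and M, by 0.66 ± 0.136 and 0.66 ± 0.185 (adjusted p = 0.0020 and 0.0056, edgeR). Cd151, the tetraspanin that binds it, was higher in A by 1.42 ± 0.144 and in M by 1.14 ± 0.156. Its smaller differences in E1 and E2 (0.50 ± 0.130 and 0.53 ± 0.137) were called but ended without 4 single libraries each, parental replicate 1 or 2 in both, E1 replicate 2 or 3 in E1 and E2 replicate 1 or 3 in E2 (0.0575 to 0.130).

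**Figure D5:**
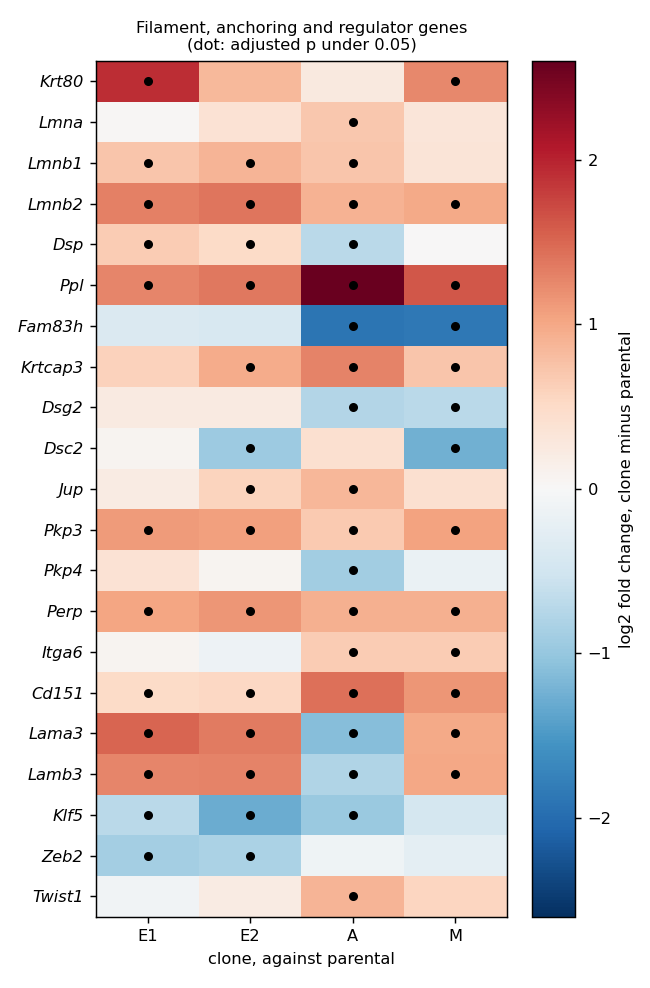
Log2 fold change of filament, linker, junction and regulator genes in the 4 clones against the parental population (colour scale, red higher, blue lower), with a dot at an adjusted p under 0.05. Ppl in A is the darkest red at 2.57, and Lama3 and Lamb3 are red in E1, E2 and M and blue in A.

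Among 19 regulators of keratin and vimentin transcription 13 were tested and 6 called among the populations, beside 40.9% of all tested genes. Against the parental population 2 were higher and 2 lower in E1 (15.1% of all genes called), 3 and 2 in E2 (17.9%), 2 and 2 in A (30.0%), and 1 and 0 in M (14.1%). Klf5, an epithelial zinc finger factor, was lower in E2 and A (-1.28 ± 0.229 and -0.97 ± 0.228, adjusted p = 3.5e-05 and 0.00029, edgeR). In E1 it was at -0.70 ± 0.237, a call that ended without parental replicate 1 or 3 or E1 replicate 3 (0.0563 to 0.0835). Zeb2, a repressor of epithelial genes, was lower in E1 (-0.89 ± 0.170, adjusted p = 0.0029) and in E2 (-0.82 ± 0.375, 0.0046), and not called in A or M. Twist1, a mesenchymal factor, was higher in A by 0.88 ± 0.294 (adjusted p = 0.0068), from 7.74 CPM ± 2.01 to 14.4 ± 3.39. Zeb1 had 42 counts in all 15 libraries. Grhl2 and Gata3, epithelial factors, were not called among the populations.

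Markers of other cell types were low. Of 10 fibroblast markers, Dcn, Lum and Thy1 had 0 counts in all libraries and 2, Pdgfra and Postn, were tested. The whole list summed to 7.08 to 8.82 CPM in the parental libraries, 4.57 to 7.11 in E1, 6.30 to 12.7 in M, 16.1 to 18.5 in E2 and 21.2 to 33.9 in A. In A nearly all of it was Pdgfra, a growth factor receptor (26.4 CPM ± 6.61, higher by 1.88 ± 0.205), and in E2 most was Postn, the matrix protein periostin (11.3 CPM ± 2.41). Vim is a fibroblast transcript too, and A, highest in Vim, was highest in this sum, while its Dcn, Lum and Thy1 were at 0. The 10 leukocyte markers summed to 1.05 to 3.35 CPM, with Adgre1, Cd3e and Itgam among those at 0, and the 8 endothelial markers to at most 0.430 CPM, with Emcn and Cldn5 at 0.

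The genes most like each of the 6 by Pearson correlation of log2 CPM over the 15 libraries were taken from 8269 candidates (8270 for Krt14) with a symbol and at least 5 CPM in 1 population. For Krt7 they were Sdcbp2 (0.94), Rgs12 (0.93) and Fer1l6 (0.90). Sdcbp2 had a mean of 1.64 CPM in the parental population and between 6.67 (E2) and 10.1 (M) in the clones. For Krt8 they were Gnai2 (0.95), Cplx2 (0.95) and Dock8 (0.94), and for Krt18 Ghr (0.96), Hs2st1 (0.93) and Apbb1ip (0.93). Ghr, the growth hormone receptor gene, had 16.3 CPM in the parental population and 52.2 in A. Krt19 was most like Vta1 (0.92), Tacc2 (0.90) and Cep83 (0.89), and Vim most like Tnfrsf23 (0.93), Pls3 (0.93) and Arhgap6 (0.92). Krt14 was most like Ddit4 (0.86), Ints7 (0.84) and Postn (0.84), the last at 11.3 CPM in E2 and 0.116 to 1.21 elsewhere. The likeness is a description over 15 libraries that share their scaling.

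Neighbours on the chromosome were counted for A against the parental population, where 30.0% of all genes were called. Within 500 kb of Krt8, keratins left out, 16 other genes were tested, and 2 were called higher and 2 lower in A, with a median fold change of -0.22. Around Krt18 the numbers were 20 genes, 2 higher and 2 lower in A, and around Krt7 they were 4 genes, 1 higher, with a median of 0.52. Vim had 5 such neighbours, of which 1 was higher in each clone, and 10 genes lay around Krt19 and Krt14, with 2 higher and 2 lower in A. Each of Krt7, Krt8 and Krt5 also overlaps an annotated gene on the opposite strand (Gm671, Gm36026 and Gm44323). The library kit kept strand, per the labels, but whether the counting used it is not given in the sources used here, so reads of such pairs may not have been told apart. Krt8 has a processed copy, Krt8-ps, which may share reads with it.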

How the data were processed

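Whole-number counts per gene identifier were deposited by the authors, 1 table per library, and were used unnormalized. The submitters' processing notes name HISAT2, featureCounts, DESeq2 and the mouse build GRCm38 (mm10), without roles or versions; strand and multi-mapping settings are not given in the sources used here. Identifiers were matched to symbols by the RefSeq table of GRCm38.p6 (25275 of 27179). Genes were filtered by filterByExpr (minimum count 10, minimum total 15; 12712 kept), scaled by TMM (factors 0.847 to 1.11) and fitted over all 15 libraries with edgeR 4.0.16 (robust quasi-likelihood, prior count 2, R 4.3.3), without a replicate block. Adjusted p is Benjamini-Hochberg within a comparison. SE comes from the SD of log2 CPM. Exon lengths came from GENCODE transcripts linked to RefSeq, not the authors' annotation. The fit was tested on counts simulated from its own dispersions, with independent libraries and changes in well-counted genes only. That test therefore covers neither effects shared by replicate number nor genes as scarce as Krt14. Floors cover counting error only. The labels call replicates biological without naming separate cultures, so p-values measure the spread between these samples. Alternatives included DESeq2 1.42.0, other scaling and filters, left-out libraries and a replicate block.

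The 7 genes and the gene lists were chosen with earlier results of these data known. Named list genes were, by rule, those with at least 5 CPM in the highest population and a call among the populations, up to 6 per list by range; others named for lack of a call, low counts or as examples (Synm, Nes, Plec, Dst, Macf1, Grhl2, Gata3, Zeb1, Trp63, Acta2) were chosen after their values were seen. Some genes of the lists are counted but not reported here by name.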

Additional observations from a re-analysis of the deposited data

Results flagged for a closer look

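Some genes differed between clones beyond the test's threshold while being called in opposite directions against the same 3 parental libraries. Krt14 was higher in E2 and lower in A, and A minus E2 was -4.62 on the log2 scale (adjusted p = 6.7e-05, edgeR), on 0 to 8 counts per A library. Dsp, the desmoplakin gene, had A minus E1 at -1.36 (adjusted p = 8.9e-07, edgeR) and A minus E2 at -1.21 (8.8e-06). Lama3, the alpha chain of laminin-332, had A minus E1 at -2.61 (adjusted p = 1.4e-06, edgeR), A minus E2 at -2.45 (5.3e-06) and M minus A at 2.08 (5e-05). Lamb3, the beta chain, had the same 3 differences at -2.05 (adjusted p = 2e-07, edgeR), -2.08 (2.8e-07) and 1.80 (4.8e-06). Postn, the periostin gene, had A minus E2 at -5.93 (adjusted p = 6.9e-08, edgeR), with a mean of 0.116 CPM ± 0.0767 in A. These differences between clones all kept their call under every alternative run, including those with 1 library left out. Some of the calls against the parental population, such as Krt14 and Dsp in E2, did not. No separate test for outlying libraries was run.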

How the results depend on the processing

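Of 24 calls among the keratins and Vim, 14 kept direction and call under every alternative run, and of 36 differences not called, 15 were called under some alternative. Krt7 against the parental population was called in all 4 clones throughout. Where a value below differs from the report's, the cause was not tested unless fewer libraries or genes entered the test.

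Numbers of the 7 genes called moved as follows. With parental replicate 1 and E2 replicate 1, where the top identifier took most, both left out, E1 against parental had 1, A against parental 3, M against E2 2 and M against A 1. With no filter on low counts, E2 against parental and M against parental had 5, E2 against E1 1, M against E1 2 and A against E2 4. Without replicate 1 of every population, E2 and M against parental had 5, E2 against E1 1, M against E1 1, A against E2 4 and M against E2 2. M against E1 had 1 by DESeq2, and M against A had 1 in the fit of its 6 libraries alone. Leaving out 1 library gave 1 to 2 in E1, 2 to 3 in E2, 3 to 5 in A and 2 to 5 in M against parental, 0 in E2 against E1, 4 to 5 in A against E1, 0 to 2 in M against E1, 2 to 3 in A against E2, 1 to 2 in M against E2 and 1 to 3 in M against A.

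Replicate numbers are shared by the 5 populations, and the labels do not say whether they pair the samples. In the data, correlations of same-numbered deviations were weak, with 4 of 30 over 0.1 (from -0.058 to 0.21). Even so, 14 of 15 libraries correlated best with their own number, so the libraries did share something by replicate number. What it stands for was not tested, and the reported fit does not model it. A replicate block raised the calls among all genes in every pair, as in E1 against parental from 1922 to 2255. With the replicate block, E2 and M against parental had 5 calls, E2 against E1 1, M against E1 1, A against E2 4 and M against A 4.

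Signs reversed for differences near 0 that were not called. On leaving out 1 library Krt7 ran from -0.056 to 0.13 in A against E1, from -0.024 to 0.25 in M against E1 and from -0.090 to 0.20 in M against A. Krt8 ran from -0.12 to 0.42 in M against E2. Krt18 ran from -0.064 to 0.38 in E2 against E1, from -0.24 to 0.29 in M against E1 and from -0.39 to 0.12 in M against E2. Krt19 ran from -0.071 to 0.20 in M against E1, and Vim from -0.25 to 0.38 in M against E2, where it was -0.095 with parental replicate 1 and E2 replicate 1 both left out. Depth limits Krt14 most, with 0 to 122 counts per library, and no ratio of 3 against 3 libraries can give an exact p under 0.1.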
